A study of Mus musculus with 9 samples.

Results

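The mouse genes that write, copy and remove DNA methylation were followed across 3 cultures of pluripotent cells. The 8 genes are the DNA methyltransferase genes Dnmt1, Dnmt3a, Dnmt3b and Dnmt3l, the maintenance factor gene Uhrf1, and the dioxygenase genes Tet1, Tet2 and Tet3. They were picked by gene symbol in the probe annotation. All 8 were measured, among 19938 genes tested, by 11 probe sets: 3 for Tet1, 2 for Tet3 and 1 for each other gene. Each culture was measured on 3 arrays (Affymetrix Mouse Gene 1.0 ST), and values are log2 expression summaries, so a difference of 1 is 2-fold.

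The first group were epiblast stem cells (EpiSCs) of strain CD1 kept in CHIR99021, an inhibitor of the kinase GSK3, with XAV939, an inhibitor of tankyrases that stabilises Axin. The second were EpiSCs of strain CD1 kept in the growth factors FGF2 and activin. The third were embryonic stem cells (ESCs) of strain 129 kept in 2i, which by the usual meaning of the name is CHIR99021 with PD0325901, an inhibitor of the kinase MEK. The labels list 3 µM CHIR99021, 1 µM PD0325901, 2 µM XAV939, 10 ng/ml FGF2 and 10 ng/ml activin for all samples together. The basal medium with 10% fetal bovine serum is the same in all groups. No line or clone is named. Whether the 3 arrays of a culture stand for independent cell batches is not stated, so the p-values describe array-to-array variation that may be purely technical. EpiSCs and ESCs also differ in strain, and effects of strain and of cell type cannot be told apart. In such bulk RNA, fewer cells that express a gene and less RNA per cell cannot be told apart either.

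Markers of the naive and primed states mostly followed the labels. All 8 naive ESC markers, among them Esrrb and Zfp42, were lower in both EpiSC groups than in ESCs, and of 7 primed epiblast markers all 7 were higher in CHIR/XAV EpiSCs and 6 in FGF2/activin EpiSCs. The exception was Car4, at 5.02 in FGF2/activin EpiSCs against 5.04 in ESCs (limma, adjusted p = 0.802). Marker lists of fibroblasts or feeders stayed dim, with list means of 5.30 to 5.39 in CHIR/XAV EpiSCs, 5.24 to 5.27 in FGF2/activin EpiSCs and 5.09 to 5.13 in ESCs, against array medians of 5.57 to 5.65. Only Thy1 of that list rose by over 1, by 1.77 in CHIR/XAV EpiSCs. Other lineage lists moved in both directions. Of the neural markers Nes was at 7.70 in CHIR/XAV EpiSCs, 8.98 in FGF2/activin EpiSCs and 5.32 in ESCs, whereas Pax6 was at 5.01, 4.81 and 6.76, and neither Sox1 nor Neurog2 rose. Of the primitive streak markers Eomes and Kdr rose in both EpiSC groups, Mixl1 fell in FGF2/activin EpiSCs, Tbx6 fell in both and Mesp1 did not pass. Group means of Kdr and Tbx6 lay below the array medians in every group, where no order can be read. The part of these lineage markers in the results was not tested. The 3 groups also differed in sex-linked genes, which the labels do not mention. Xist, the RNA of the inactive X chromosome, was at 8.90 to 9.45 in CHIR/XAV EpiSCs, 4.31 to 4.45 in FGF2/activin EpiSCs and 4.41 to 4.76 in ESCs. The Y-linked Uty was at 4.23 to 4.31, 9.35 to 9.39 and 8.71 to 8.97 in the same 3 groups, and Eif2s3y followed it. Kdm5d, also Y-linked, was at 4.66 to 4.83 in CHIR/XAV EpiSCs, 8.45 to 8.65 in FGF2/activin EpiSCs and 4.64 to 4.87 in ESCs, so the Y-linked genes did not all follow 1 pattern in ESCs. CHIR/XAV EpiSCs thus differed in sex-linked expression both from FGF2/activin EpiSCs and from ESCs. Between the EpiSC cultures Xist and the Y-linked genes differed in opposite directions, so these cultures may also be different lines. FGF2/activin EpiSCs also differed from ESCs, with Kdm5d higher by 3.82 (limma, adjusted p = 6.89e-14). In all these comparisons the effect of sex-linked differences or of line and that of medium, strain or cell type cannot be told apart.

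DNA methylation in mammals lies mostly on cytosines followed by guanine (CpG). Dnmt3a and Dnmt3b set it on unmethylated DNA, and Dnmt3l, which has no catalytic activity of its own, binds and stimulates them. After replication Uhrf1 recognises hemimethylated CpGs and brings Dnmt1 to them, which copies the mark to the new strand. Tet enzymes oxidise 5-methylcytosine, which starts its removal. Naive ESCs in 2i are known for low genomic methylation, and methylation rises as the epiblast becomes primed. Methylation was not measured here, so whether these ESCs, in medium with 10% serum, had low methylation is not known.

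Promoter sequences of the 3 genes whose group means lay farthest apart show how different their CpG content is. Each window runs from 250 bases before to 50 bases after an annotated start (RefSeq, build GRCm38.p6) and is printed 5′ to 3′ on the gene's strand with every CpG in capitals. The Tet2 window (chr3:133544341-133544640, minus strand) holds 57 CpGs, a number that only 0.152% of 32851 mouse windows reach. The Dnmt3l window (chr10:78042037-78042336, plus strand), the most upstream of 3, holds 6. The Dnmt3b window (chr2:153649199-153649498, plus strand) holds 30, and 11.7% of windows have as many. The median window has 7.
Tet2: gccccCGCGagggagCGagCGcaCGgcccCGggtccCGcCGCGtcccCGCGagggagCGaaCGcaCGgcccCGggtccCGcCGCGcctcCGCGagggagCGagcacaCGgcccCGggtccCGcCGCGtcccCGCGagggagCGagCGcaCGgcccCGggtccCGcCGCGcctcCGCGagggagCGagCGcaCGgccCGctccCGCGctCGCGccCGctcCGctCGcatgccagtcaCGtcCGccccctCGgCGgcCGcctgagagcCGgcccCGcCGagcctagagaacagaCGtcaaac
Dnmt3l: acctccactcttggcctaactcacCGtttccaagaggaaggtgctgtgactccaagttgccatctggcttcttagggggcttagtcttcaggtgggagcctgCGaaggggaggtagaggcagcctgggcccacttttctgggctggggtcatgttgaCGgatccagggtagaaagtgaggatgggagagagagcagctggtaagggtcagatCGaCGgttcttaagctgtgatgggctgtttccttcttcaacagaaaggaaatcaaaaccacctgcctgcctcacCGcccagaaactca
Dnmt3b: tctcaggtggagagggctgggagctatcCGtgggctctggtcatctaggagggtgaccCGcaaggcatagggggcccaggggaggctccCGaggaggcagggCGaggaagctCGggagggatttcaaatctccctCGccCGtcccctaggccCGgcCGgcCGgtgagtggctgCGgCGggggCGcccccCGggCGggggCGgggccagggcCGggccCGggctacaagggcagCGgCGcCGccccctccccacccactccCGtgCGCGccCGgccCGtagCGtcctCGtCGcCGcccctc

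All 8 genes have at least 1 such window, 15 in all. The other Dnmt3l windows hold 4 and 3 CpGs, the Tet1 window 17 and the Tet3 window 22. The Dnmt3a windows, 3 in number, hold 46, 47 and 18. Several motifs were searched on both strands. The GC box GGGCGG lies in 12 of the 15 windows, against 35.7% of all windows. Most of the 15 hold more CpGs than the median window, so this background is not matched for base content. The Dnmt3a windows with 46 and 47 CpGs also overlap each other. The E2F-type motif TTTNGCGC lies in 1 window of Dnmt1 and 1 of Uhrf1, the maintenance pair, and in no window of the other 6 genes, against 1.38% of all windows. The Esrrb-type motif TCAAGGTCA, found in 0.423% of all windows, and the TCF/LEF-type motif CTTTGAT, found in 3.73%, are in none of the 15. A match to these letters is no proof of binding.

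Differences were tested with limma over all 19938 genes, with Benjamini-Hochberg adjusted p under 0.05 as the threshold, and all adjusted p-values below are of this kind unless another fit is named. Of the 8 genes, 2 were higher and 3 lower in CHIR/XAV EpiSCs than in ESCs, where 46.7% of all genes were called (24.7% higher, 22.1% lower). Of FGF2/activin EpiSCs against ESCs, 3 were higher and 4 lower, where 61.3% of all genes were called (27.8% higher, 33.5% lower). Between CHIR/XAV and FGF2/activin EpiSCs 4 were higher and 3 lower, where 41.6% of all genes were called (20.5% higher, 21.1% lower). With backgrounds this high, the counts say little about these genes as a set. Without the dimmest 40% of genes, which left all 8 in, 7918 of 11963 genes were called in CHIR/XAV EpiSCs against ESCs. The median size of the difference over the 8 genes was 0.65, 0.85 and 0.45 in these 3 comparisons, against 0.19, 0.26 and 0.17 over all genes. The 8 genes were chosen with earlier results of these data known, and all genes include the dim ones. These medians are thus a description only. At 2-fold or more, 1 gene (Dnmt3b) was higher and 1 (Tet2) lower in CHIR/XAV EpiSCs than in ESCs, where 8.32% of all genes passed (5.03% higher, 3.3% lower). The same bound was passed by 1 higher gene (Tet3) and 2 lower genes (Tet2 and Dnmt3l) in FGF2/activin EpiSCs against ESCs, where 10.1% of all genes passed (6.66% higher, 3.45% lower). Dnmt3b and Dnmt3l were higher by this bound in CHIR/XAV than in FGF2/activin EpiSCs and no gene of the 8 was lower, where 4.11% of all genes passed (1.62% higher, 2.5% lower). The comparisons share arrays and are not independent of each other.

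**Figure D1:**
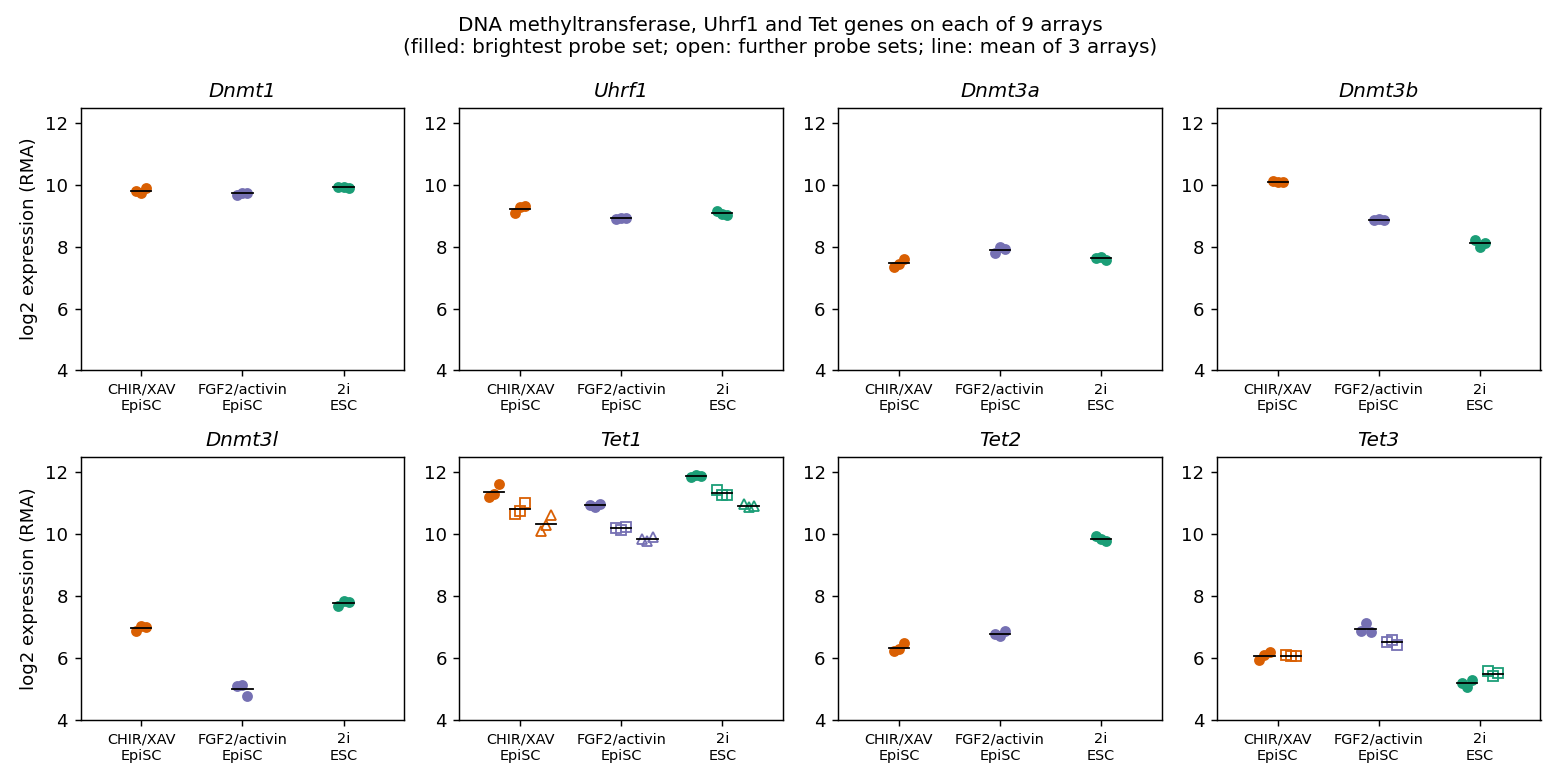
Log2 expression (vertical axis) of each of the 8 genes on the 9 arrays, by culture (horizontal axis). Points are arrays, lines are means of 3, filled points are the probe set used in the gene tests and open points the further probe sets of Tet1 and Tet3. Tet2 has a mean of 9.86 in ESCs and of 6.33 and 6.79 in the EpiSC groups, whereas the group means of Dnmt1 and of Uhrf1 each lie within 0.31.

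The maintenance pair was the most even of the set. Dnmt1, which encodes the enzyme that copies methylation after replication, was at 9.79, 9.74 and 9.89 in CHIR/XAV EpiSCs, 9.68, 9.73 and 9.74 in FGF2/activin EpiSCs, and 9.93, 9.95 and 9.90 in ESCs. Each EpiSC array lay below each ESC array, by a small margin. In FGF2/activin EpiSCs Dnmt1 fell by 0.21 (SE 0.06, adjusted p = 0.0136). That call was lost after median centring of the arrays (adjusted p = 0.0714) and without FGF2/activin replicate 1 (adjusted p = 0.0541), in a range of 0.00238 to 0.0714 over the alternatives other than the test against 1.5-fold. In CHIR/XAV EpiSCs the difference was -0.12, with a 95% confidence interval of -0.26 to 0.02 (adjusted p = 0.156). Between the EpiSC groups it was 0.09 (interval -0.05 to 0.23, adjusted p = 0.293).

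Uhrf1, which encodes the hemimethylated-DNA reader that guides Dnmt1, was at 9.10, 9.27 and 9.32 in CHIR/XAV EpiSCs, 8.90, 8.93 and 8.94 in FGF2/activin EpiSCs, and 9.15, 9.05 and 9.04 in ESCs. CHIR/XAV arrays overlapped with ESC arrays, and FGF2/activin arrays lay below both. Uhrf1 was higher in CHIR/XAV than in FGF2/activin EpiSCs by 0.31 (SE 0.07, adjusted p = 0.00334). Against ESCs it did not pass in either group, at 0.15 in CHIR/XAV EpiSCs (adjusted p = 0.0961) and -0.15 in FGF2/activin EpiSCs (adjusted p = 0.0775). Without CHIR/XAV replicate 1, the lowest of its group, the first of these passed at 0.22 (adjusted p = 0.023, in a range of 0.023 to 0.285 over the alternatives). The second passed after quantile normalization at -0.27 (adjusted p = 0.00421, in a range of 0.00421 to 0.288). Proliferation markers, whose transcripts follow cell division, had list means of 10.44 to 10.55 in CHIR/XAV EpiSCs, 10.49 to 10.64 in FGF2/activin EpiSCs and 10.26 to 10.41 in ESCs. Their part in the levels of Uhrf1 and Dnmt1 was not tested.

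Of the de novo enzymes Dnmt3b differed strongly between cultures and Dnmt3a little. Dnmt3b was at 10.14, 10.10 and 10.08 in CHIR/XAV EpiSCs, 8.87, 8.89 and 8.86 in FGF2/activin EpiSCs, and 8.23, 7.99 and 8.10 in ESCs. The 3 groups did not overlap, and each step between neighbours passed the test. Against ESCs it was higher by 2.00 (SE 0.07, adjusted p = 1.4e-11), or 3.99-fold, in CHIR/XAV EpiSCs, and by 0.77 (SE 0.07, adjusted p = 3.83e-07), or 1.70-fold, in FGF2/activin EpiSCs. CHIR/XAV exceeded FGF2/activin EpiSCs by 1.23 (SE 0.07, adjusted p = 6.63e-09), and 2.46% of all genes differed by more between these groups. The mouse also has Dnmt3c, a copy of Dnmt3b; it was not analysed here, and whether it adds to the Dnmt3b signal was not tested.

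Dnmt3a was at 7.35, 7.46 and 7.59 in CHIR/XAV EpiSCs, 7.78, 7.98 and 7.92 in FGF2/activin EpiSCs, and 7.63, 7.68 and 7.58 in ESCs. It was thus highest in FGF2/activin EpiSCs, where Dnmt3b was intermediate. It was lower in CHIR/XAV than in FGF2/activin EpiSCs by 0.43 on the log2 scale (difference -0.43, SE 0.08, adjusted p = 0.000518). In FGF2/activin EpiSCs it was higher than in ESCs by 0.26 (SE 0.08, adjusted p = 0.0103), a call lost after quantile normalization (adjusted p = 0.0965, in a range of 0.00325 to 0.0965). In CHIR/XAV EpiSCs it overlapped with ESCs and differed by -0.17 (interval -0.33 to 0.002, adjusted p = 0.0998). Without CHIR/XAV replicate 3, the highest of its group, this difference passed at -0.23 (adjusted p = 0.0345, in a range of 0.0345 to 0.31).

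Dnmt3l, which encodes the stimulating partner of the de novo enzymes and is known for its role in the germline, was lower in both EpiSC groups than in ESCs, where Dnmt3b was higher, and like Dnmt3b was higher in CHIR/XAV than in FGF2/activin EpiSCs. It was at 6.87, 7.03 and 6.995 in CHIR/XAV EpiSCs, 5.08, 5.11 and 4.77 in FGF2/activin EpiSCs, and 7.68, 7.86 and 7.79 in ESCs. The groups did not overlap. The FGF2/activin values lie below the array medians of 5.57 to 5.65, where a dim transcript cannot be told from background, so the fold against them may be too small. Against ESCs Dnmt3l fell by 0.81 in CHIR/XAV EpiSCs (SE 0.09, adjusted p = 4.07e-06) and by 2.79 in FGF2/activin EpiSCs (SE 0.09, adjusted p = 4.74e-12), or 6.92-fold. CHIR/XAV exceeded FGF2/activin EpiSCs by 1.98 (SE 0.09, adjusted p = 7.43e-10), the 72nd highest excess among all genes.

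Of the germline markers Sycp3 and Mael had the same order of groups as Dnmt3l. The mean of Ddx4, Dazl, Sycp3 and Mael was 6.56 to 6.67 in CHIR/XAV EpiSCs, 4.60 to 4.83 in FGF2/activin EpiSCs and 7.95 to 8.01 in ESCs. All 4 were lower in both EpiSC groups than in ESCs. Between the EpiSC groups the excess in CHIR/XAV was 3.75 for Sycp3, a synaptonemal complex gene, and 3.20 for Mael, a piRNA pathway gene. Ddx4, an RNA helicase gene, and Dazl, an RNA-binding protein gene, lay below the array medians in both EpiSC groups, where no order can be read. Their part in the Dnmt3l result was not tested.

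The 3 Tet genes each took a different course. Tet1 encodes the main Tet enzyme of ESCs and carries a CXXC domain that binds CpG-rich DNA. On its brightest probe set it was at 11.22, 11.30 and 11.62 in CHIR/XAV EpiSCs, 10.94, 10.89 and 10.99 in FGF2/activin EpiSCs, and 11.86, 11.90 and 11.87 in ESCs. The groups did not overlap, and CHIR/XAV EpiSCs lay between the others with the widest spread (SD 0.21, n = 3). Tet1 fell by 0.50 in CHIR/XAV EpiSCs (SE 0.09, adjusted p = 0.000381) and by 0.94 in FGF2/activin EpiSCs (SE 0.09, adjusted p = 6.99e-07) against ESCs. Between the EpiSC groups it was higher in CHIR/XAV by 0.44 (SE 0.09, adjusted p = 0.00139).

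The other Tet1 probe sets gave the same order of groups. In a limma fit over all 21789 probe sets with 1 gene symbol, they fell by 0.53 and 0.58 in CHIR/XAV EpiSCs against ESCs (adjusted p = 0.000271 and 0.000357). They fell by 1.14 and by 1.08 in FGF2/activin EpiSCs (adjusted p = 1.3e-07 and 8.33e-07). On all 3 probe sets replicate 3 was the highest of the CHIR/XAV arrays. Without it the fall in CHIR/XAV EpiSCs was 0.62 on the brightest probe set (value -0.62).

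Tet2, whose protein lacks a CXXC domain of its own, showed the largest difference of the 8 genes against ESCs. It was at 6.22, 6.28 and 6.48 in CHIR/XAV EpiSCs, 6.78, 6.70 and 6.87 in FGF2/activin EpiSCs, and 9.94, 9.85 and 9.78 in ESCs. ESCs stood far apart, and the EpiSC groups lay close to each other without overlap. Tet2 fell by 3.53 in CHIR/XAV EpiSCs (SE 0.08, adjusted p = 2e-13), or 11.5-fold, the 34th deepest fall there. It fell by 3.07 in FGF2/activin EpiSCs (SE 0.08, adjusted p = 5.21e-13), or 8.40-fold, the 77th deepest. CHIR/XAV EpiSCs were lower than FGF2/activin EpiSCs by a further 0.46 (difference -0.46, SE 0.08, adjusted p = 0.000436).

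Tet3, the Tet enzyme of the oocyte and zygote, was the only Tet gene above its ESC level. On its brighter probe set it was at 5.92, 6.10 and 6.20 in CHIR/XAV EpiSCs, 6.86, 7.14 and 6.85 in FGF2/activin EpiSCs, and 5.20, 5.08 and 5.30 in ESCs. The groups did not overlap, and the ESC values lie below the array medians. Tet3 rose by 0.88 in CHIR/XAV EpiSCs (SE 0.10, adjusted p = 2.78e-06) and by 1.76 in FGF2/activin EpiSCs (SE 0.10, adjusted p = 1.25e-09), or 3.39-fold. Since the ESC level is that dim, both rises may be too small. It was lower in CHIR/XAV than in FGF2/activin EpiSCs, at a difference of -0.88 (SE 0.10, adjusted p = 4.99e-06).

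The second Tet3 probe set kept the order of groups with smaller steps. It was at 6.08, 6.06 and 6.05 in CHIR/XAV EpiSCs, 6.52, 6.58 and 6.41 in FGF2/activin EpiSCs, and 5.58, 5.40 and 5.50 in ESCs. In the fit over 21789 probe sets it rose by 0.57 in CHIR/XAV EpiSCs (adjusted p = 1.31e-05) and by 1.01 in FGF2/activin EpiSCs (adjusted p = 3.25e-08). The rise was thus smaller on this probe set in both comparisons, and its size is uncertain.

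**Figure D2:**
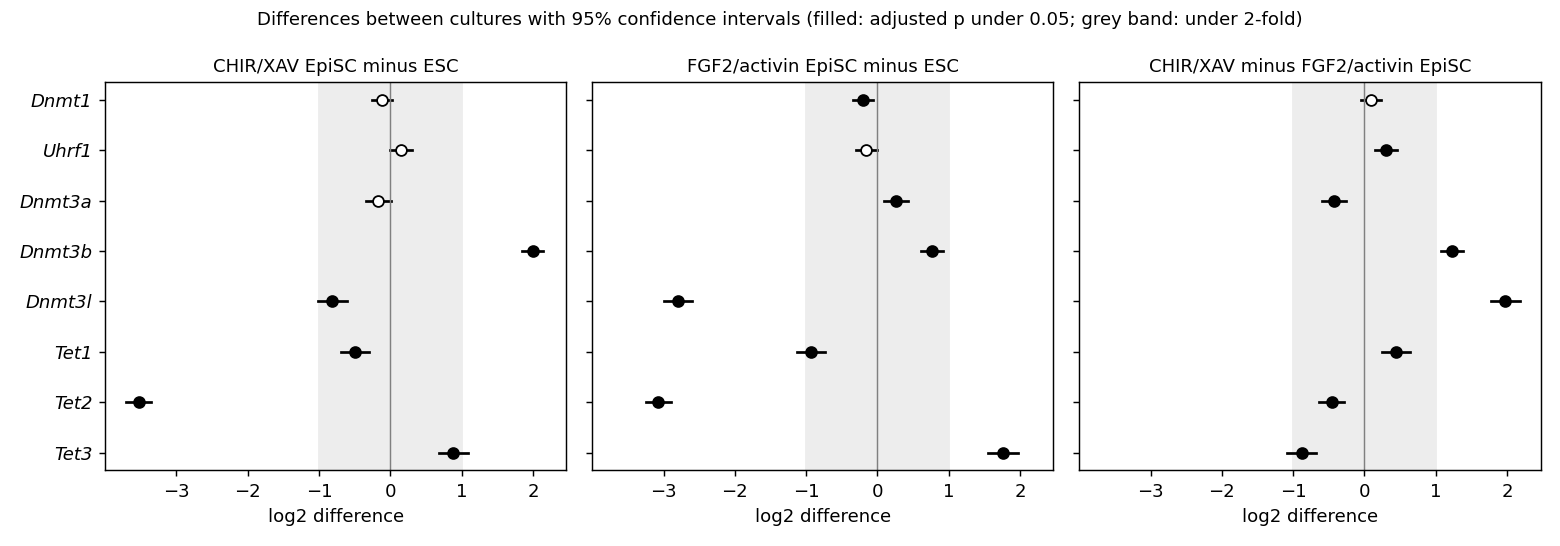
Log2 differences (horizontal axes) of the 8 genes in the 3 comparisons, with 95% confidence intervals from limma. Filled points passed an adjusted p under 0.05 and the grey band marks less than 2-fold. Tet2 at -3.53 and -3.07 and Dnmt3l at -2.79 lie farthest out.

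In the order of group means ESCs were highest for Dnmt1, Dnmt3l, Tet1 and Tet2. CHIR/XAV EpiSCs were highest for Dnmt3b and Uhrf1, and FGF2/activin EpiSCs for Dnmt3a and Tet3. Neighbours in this order did not differ past the threshold for Dnmt1 (both steps), for Uhrf1 (both steps) and for Dnmt3a between ESCs and CHIR/XAV EpiSCs. All other neighbouring steps passed. Array values did not overlap between groups for 6 of the 8 genes in CHIR/XAV EpiSCs against ESCs (53.2% of all genes), 8 of 8 in FGF2/activin EpiSCs against ESCs (66.6%) and 8 of 8 between the EpiSC groups (52%).

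Differences between genes within an array show how unequally related genes changed. They carry no level of one gene against another, since probe sets differ in brightness, and no test was made on them. Dnmt3b minus Dnmt3a was 2.64 ± 0.15 in CHIR/XAV EpiSCs, 0.98 ± 0.09 in FGF2/activin EpiSCs and 0.48 ± 0.15 in ESCs (SD, n = 3 each), with no overlap. Dnmt3l minus Dnmt3b was -3.14 ± 0.11 in CHIR/XAV EpiSCs, -3.89 ± 0.18 in FGF2/activin EpiSCs and -0.33 ± 0.21 in ESCs (SD, n = 3 each). On this measure both EpiSC groups stood apart from ESCs without overlap, by shifts of -2.81 in CHIR/XAV and -3.56 in FGF2/activin EpiSCs. Of the pair, Dnmt3b moved more in CHIR/XAV and Dnmt3l more in FGF2/activin EpiSCs.

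For Tet3 against Tet2 the shift from ESCs was larger still, at 4.41 in CHIR/XAV and 4.83 in FGF2/activin EpiSCs. Tet3 minus Tet2 was -0.25 ± 0.06 in CHIR/XAV EpiSCs, 0.17 ± 0.24 in FGF2/activin EpiSCs and -4.67 ± 0.16 in ESCs (SD, n = 3 each). Tet1 minus Tet2 was 5.05 ± 0.07 in CHIR/XAV EpiSCs, 4.15 ± 0.03 in FGF2/activin EpiSCs and 2.02 ± 0.09 in ESCs (SD, n = 3 each), so Tet1 lost less than Tet2 did. For the maintenance pair, Uhrf1 minus Dnmt1 was -0.58 ± 0.10 in CHIR/XAV EpiSCs, -0.80 ± 0.01 in FGF2/activin EpiSCs and -0.85 ± 0.06 in ESCs (SD, n = 3 each), and FGF2/activin EpiSCs overlapped with ESCs.

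**Figure D3:**
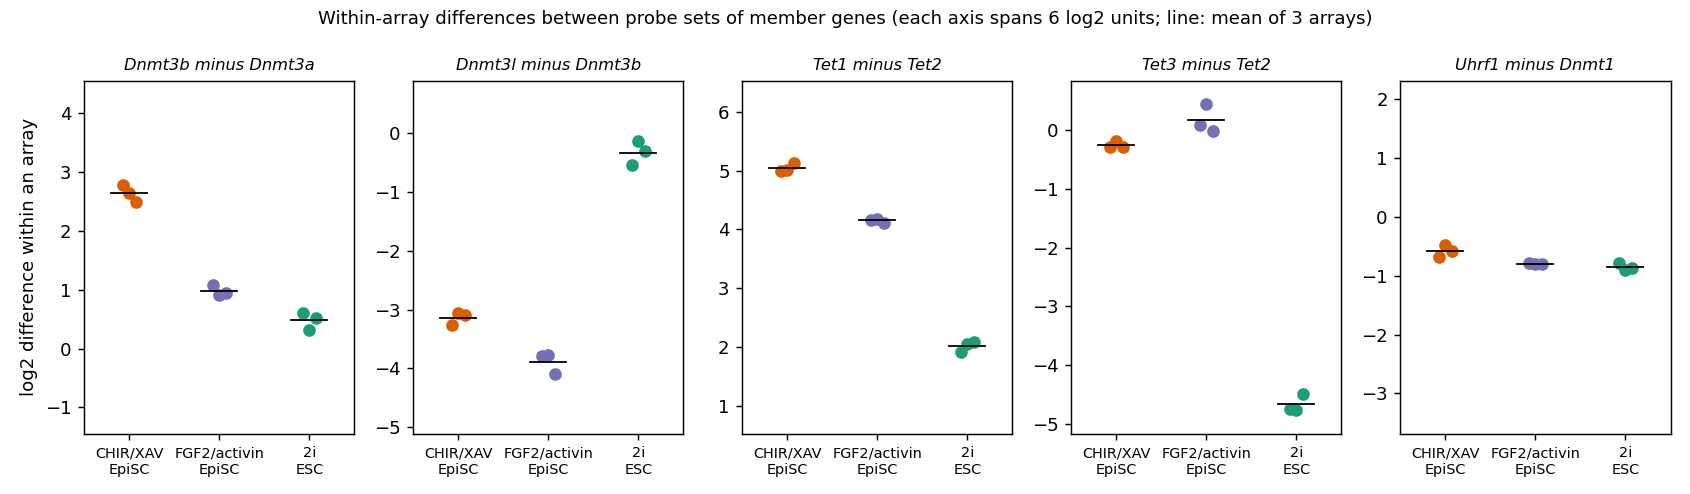
Within-array log2 differences between 2 genes (vertical axes, each spanning the same range) by culture, with 1 point per array and lines at the mean of 3. Tet3 minus Tet2 lies at -4.67 in ESCs and near 0 in both EpiSC groups, while Uhrf1 minus Dnmt1 moves by 0.27 at most.

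Other genes of DNA methylation and its removal were described from a list of 66, of which 58 were measured. In CHIR/XAV EpiSCs 13 were higher and 23 lower than in ESCs, or 62.1% called against 46.7% of all genes (median -0.05, against -0.03). For FGF2/activin EpiSCs 19 were higher and 26 lower than in ESCs, or 77.6% against 61.3% of all genes (median -0.11, against -0.08). Between CHIR/XAV and FGF2/activin EpiSCs 18 were higher and 18 lower, or 62.1% against 41.6% of all genes (median 0.06, against 0.05). These shares are not matched for brightness, since all genes include the dim ones. Without the dimmest 40% of genes, 7918 of 11963 were called in CHIR/XAV EpiSCs against ESCs, against 9320 of 19938 with them. No test was made on the list or on its roles, and the role counts below are to be read against these shares of all genes, 24.7% higher and 22.1% lower in CHIR/XAV EpiSCs against ESCs and 27.8% higher and 33.5% lower in FGF2/activin EpiSCs against ESCs. Group means of Prdm14, Dppa3, Neil3 and Apobec1 in some groups lie below the array medians, so their differences there may be too small. A difference between dim groups carries no order. Smug1, Neil2, Gadd45g, Zbtb4, Gnmt, Cxxc4 and Nlrp2 have group means below the array medians in every group. Calls on them enter the role counts but carry no order.

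The regulators of the germline and the naive state held the largest changes. Prdm14, which encodes a repressor of de novo methyltransferase genes in mouse ESCs, was at 4.69 in CHIR/XAV EpiSCs, 4.52 in FGF2/activin EpiSCs and 7.50 in ESCs. It fell by 2.81 (SE 0.11, adjusted p = 2.78e-11) and by 2.98 (SE 0.11, adjusted p = 1.13e-11) in these EpiSC groups. Both EpiSC levels lie below the array medians, so the EpiSC groups cannot be compared for Prdm14. Dppa3 (Stella), whose protein keeps Uhrf1 from chromatin in the oocyte, fell by 3.06 in CHIR/XAV and by 4.12 in FGF2/activin EpiSCs, where it was at 5.28 and 4.21. Both lie below the array medians, so these falls may be too small and no difference between the EpiSC groups is given. Trdmt1 (Dnmt2), a tRNA methyltransferase gene despite its older name, was higher by 0.30 in CHIR/XAV EpiSCs than in ESCs. Its excess in CHIR/XAV over FGF2/activin EpiSCs was 0.19. Nlrp2 did not pass in any comparison.

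Among 15 maintenance and targeting partners 4 rose and 5 fell in CHIR/XAV EpiSCs (60% called, 46.7% of all genes), and 3 rose and 8 fell in FGF2/activin EpiSCs (73.3% called, 61.3% of all genes). Zfp57, a zinc-finger gene that protects imprints, fell by 1.86 in CHIR/XAV and fell by 1.53 in FGF2/activin EpiSCs. Uhrf2, a relative of Uhrf1 that binds hydroxymethylated DNA, fell by 1.26 and by 0.60, and was lower in CHIR/XAV than in FGF2/activin EpiSCs (difference -0.66, adjusted p = 1.36e-05), the opposite direction to Uhrf1. Ehmt1, a histone H3 lysine methyltransferase gene, rose by 0.64 in CHIR/XAV EpiSCs. Kdm1b, a histone demethylase gene needed for imprints in oocytes, fell by 0.67 in FGF2/activin EpiSCs, and Usp7, which encodes a deubiquitinase that binds Dnmt1 and Uhrf1, fell by 0.63. Cdca7, a partner of the remodeller Hells, was higher in CHIR/XAV than in FGF2/activin EpiSCs by 0.60, and Morc3 by 0.52.

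Of the 7 measured readers of methylated DNA, 1 rose and 3 fell in CHIR/XAV EpiSCs (57.1% called, 46.7% of all genes), and 4 rose and 2 fell in FGF2/activin EpiSCs (85.7%, against 61.3%). Zbtb38 fell by 1.90 and by 0.73 in these groups, while Zbtb33 (Kaiso) rose by 0.53 and by 0.93. Mbd2, a methyl-CpG binding protein gene, fell by 0.41 in CHIR/XAV EpiSCs, and Mbd1 rose by 0.58 in FGF2/activin EpiSCs. Between CHIR/XAV and FGF2/activin EpiSCs 5 of the 7 readers were lower and none was higher, against 21.1% lower and 20.5% higher of all genes, with no test of the role. They include Zbtb38 (-1.17), Mbd2 (-0.71) and Mbd1 (-0.43).

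Of 12 measured genes of base excision and deamination, 2 rose and 6 fell in CHIR/XAV EpiSCs (66.7% called, 46.7% of all genes), and 5 rose and 5 fell in FGF2/activin EpiSCs (83.3%, against 61.3%). Neil3, a DNA glycosylase gene, was at 4.72 in CHIR/XAV EpiSCs, 6.59 in FGF2/activin EpiSCs and 6.76 in ESCs. It was lower in CHIR/XAV EpiSCs by 2.04 than in ESCs and by 1.87 than in FGF2/activin EpiSCs (differences -2.04 and -1.87). Gadd45a, a stress response gene, was lower in CHIR/XAV EpiSCs in the same 2 comparisons (-1.04 and -1.27), and Apobec1, a cytidine deaminase gene, was higher (1.10 and 1.16). Ung, the uracil glycosylase gene, fell by 0.92 in FGF2/activin EpiSCs, where Parp1 fell by 0.73 and Gadd45b rose by 0.58. Tdg, the glycosylase of oxidised methylcytosine, was not analysed here.

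Of 6 CXXC proteins, 2 rose and 1 fell in CHIR/XAV EpiSCs (50% called, 46.7% of all genes), and 4 rose and 1 fell in FGF2/activin EpiSCs (83.3%, against 61.3%). Kdm2b, which brings a Polycomb complex to CpG islands, rose by 1.24 and by 1.11. Cxxc5 fell by 0.48 in CHIR/XAV EpiSCs, and Cxxc1 rose by 0.47 and Kdm2a by 0.42 in FGF2/activin EpiSCs. Cxxc4 (Idax), which lies beside Tet2 and encodes a CXXC protein that binds it, was dim at 5.50 in CHIR/XAV EpiSCs, 5.33 in FGF2/activin EpiSCs and 5.15 in ESCs. Its differences from ESCs were 0.35 in CHIR/XAV EpiSCs (adjusted p = 0.00157) and 0.18 in FGF2/activin EpiSCs (adjusted p = 0.0576). Every group mean lay below the array medians, so these differences carry no order. Between the EpiSC groups 3 of the 6 CXXC genes were lower in CHIR/XAV and none was higher (50% called, 41.6% of all genes). They were Kdm2a (-0.34), Cxxc1 (-0.27) and Cxxc5 (-0.23), and arrays of Cxxc1 and Cxxc5 overlapped between these groups.

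Of 12 measured genes of methyl donor and cofactor metabolism, 3 rose and 5 fell in CHIR/XAV EpiSCs (66.7% called, 46.7% of all genes), and 3 rose and 7 fell in FGF2/activin EpiSCs (83.3%, against 61.3%). Idh2, which makes the Tet cofactor 2-oxoglutarate in mitochondria, fell by 1.37 in CHIR/XAV EpiSCs and was lower there than in FGF2/activin EpiSCs (-0.89). D2hgdh, which removes an inhibitor of Tet enzymes, rose by 0.75 in CHIR/XAV EpiSCs. The serine hydroxymethyltransferase gene Shmt2 fell by 0.64 in CHIR/XAV and by 1.38 in FGF2/activin EpiSCs. Psat1, of serine synthesis, fell by 0.97 and Shmt1 by 0.90 in FGF2/activin EpiSCs. Shmt1 was higher in CHIR/XAV than in FGF2/activin EpiSCs by 0.86 and Shmt2 by 0.75. Of the O-GlcNAc enzymes, Oga fell by 0.26 in CHIR/XAV EpiSCs and was lower there than in FGF2/activin EpiSCs (-0.26). Ogt, which encodes a partner of Tet enzymes, fell by 0.30 in FGF2/activin EpiSCs.

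**Figure D4:**
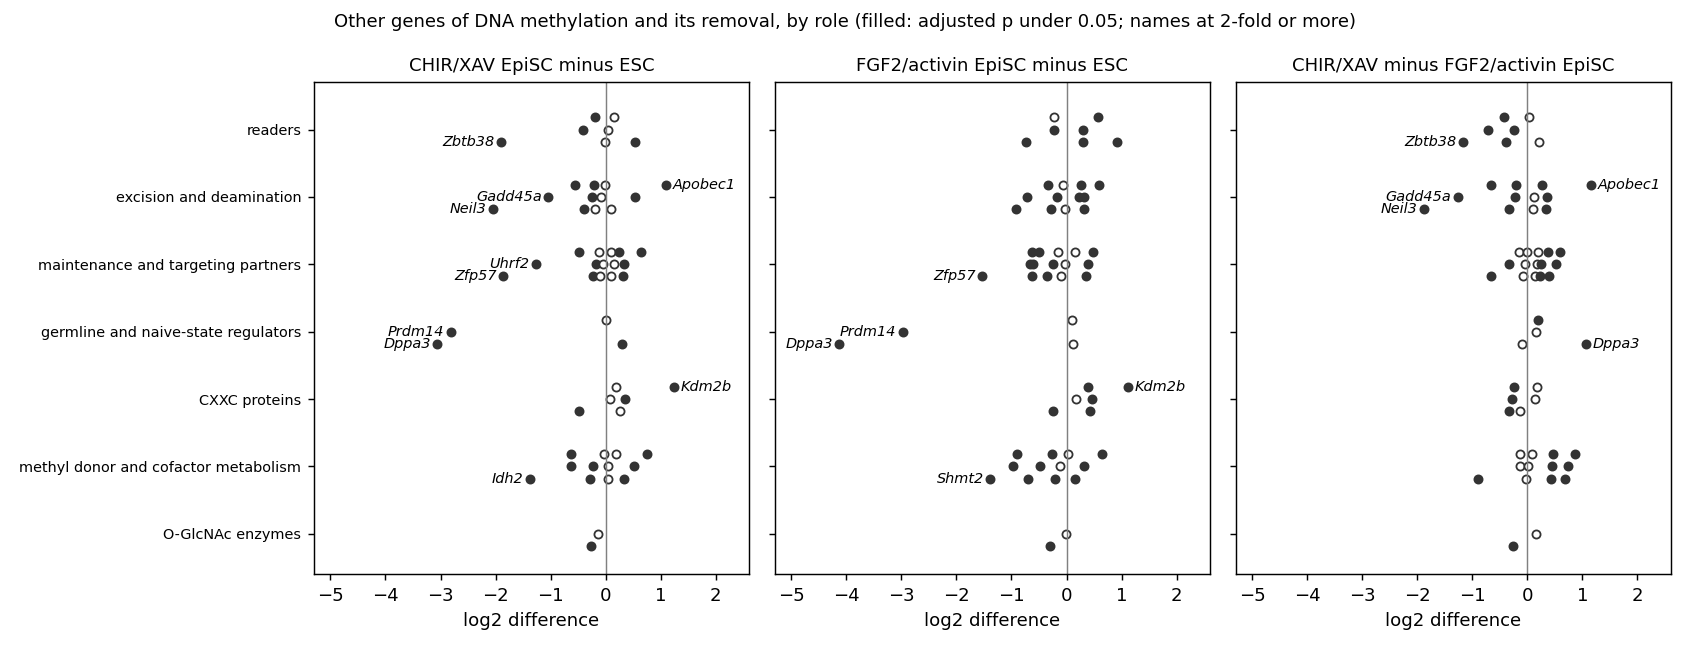
Log2 differences (horizontal axes) of the 58 other genes by role (rows) in the 3 comparisons, with 1 point per gene. Filled points passed an adjusted p under 0.05 and genes are named at 2-fold or more, with Dppa3 at -3.06 and -4.12 and Prdm14 at -2.81 and -2.98 farthest left.

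For the 4 genes whose group means span at least 1, the 3 genes with the nearest profiles were found by the root mean square difference of values centred per gene, over the 9 arrays. Nearest to Tet2 were Cobl (0.20), an actin nucleator gene, Mreg (0.21), the melanoregulin gene, and Ooep (0.23), an oocyte gene. Nearest to Dnmt3l were Stag3 (0.15), a meiotic cohesin gene, H2ac1 (0.15), a histone H2A gene, and Hexa (0.23), a lysosomal enzyme gene. Stag3 was at 7.69 in CHIR/XAV EpiSCs, 5.45 in FGF2/activin EpiSCs and 8.29 in ESCs. Nearest to Dnmt3b were Gramd3 (0.091), Atp10a (0.10), a lipid flippase gene, and Nlrc4 (0.11), an inflammasome gene. Nearest to Tet3 were Clcn3 (0.093), a chloride transporter gene, Htra1 (0.097), a protease gene, and Coro2a (0.11), a coronin gene. These profiles rest on 3 groups, so many genes can lie near one another. Group means of Nlrc4 in FGF2/activin EpiSCs and ESCs lie below the array medians, as do those of Ooep in both EpiSC groups. Those of Stag3 in FGF2/activin EpiSCs and of Htra1 and Coro2a in ESCs lie below them too. No order can be read between such dim levels.

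**Figure D5:**
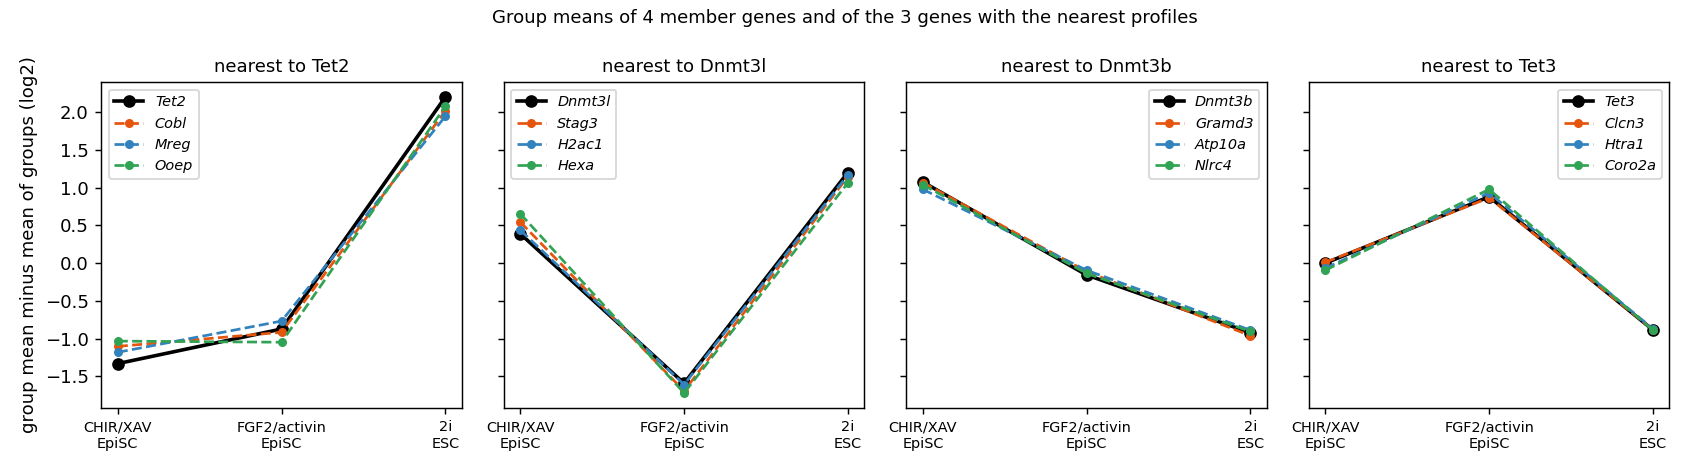
Group means minus the mean of the 3 groups (log2, vertical axis) by culture for Tet2, Dnmt3l, Dnmt3b and Tet3 (black) and the 3 genes nearest to each (colours). Lines join the groups for reading only. The Dnmt3l panel dips in FGF2/activin EpiSCs, where Stag3 stood at 5.45.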

How the data were processed

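RNA of 9 samples, 3 per culture, was hybridised to single-colour arrays. The deposited values are log2 expression summaries that the authors made with RMA in Partek, per the submitters' processing notes. Software versions and the set of arrays normalized together were not given there. That the scale is log2 was judged by the range of the values. No detection calls or scanner data were used here, which leaves dim genes without a test against background, and precision is limited by how few arrays there are.

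The table holds 35399 probe sets. The annotation gives 1 gene symbol to 21789 of them, which were tested, more than 1 to 1621, and no symbol to 11989. Symbols were updated through gene identifiers to RefSeq (GRCm38.p6), in which 19856 of 19938 genes matched. Where a gene had several probe sets (999 genes), the one with the highest mean was kept. Groups and replicate numbers came from the sample titles. All 9 arrays were fitted together with limma (version 3.58.1, under R version 4.3.3, default eBayes settings) without covariates or filter, and p-values were adjusted by Benjamini-Hochberg across all genes. The fit was tested on simulated data.

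The 8 genes and all lists were chosen with earlier results of these data known, and no list was tested as a set. All 8 genes are named. Other pathway genes are named by rule: up to 3 per role with the largest called change in a comparison, plus Prdm14, Dppa3, Uhrf2, Zfp57, Tdg and Cxxc4, and the 3 nearest profiles of each gene whose group means span at least 1. Marker genes are named as checks of the labels, and the sex-linked ones were added after the data were seen. The alternatives averaged a gene's probe sets, fitted all probe sets together, dropped the dimmest 40% of genes, used trend and robust variance, or fitted only the 2 groups compared. Others centred arrays on the median, normalized by quantiles, weighted arrays, used the replicate number as a block, omitted each array in turn, or asked for a change beyond 1.5-fold (limma treat).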

Additional observations from a re-analysis of the deposited data

Results flagged for a closer look

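Dnmt3a and Uhrf1 were picked out because their differences from ESCs had opposite signs in the 2 EpiSC cultures and the direct comparison of those cultures passed. Dnmt3a differed from ESCs by -0.17 in CHIR/XAV EpiSCs (adjusted p = 0.0998) and by 0.26 in FGF2/activin EpiSCs (adjusted p = 0.0103), and the cultures differed by -0.43 (limma, adjusted p = 0.000518). Uhrf1 differed from ESCs by 0.15 in CHIR/XAV EpiSCs (adjusted p = 0.0961) and by -0.15 in FGF2/activin EpiSCs (adjusted p = 0.0775), and the cultures differed by 0.31 (limma, adjusted p = 0.00334). Both differences are under 1.5-fold.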

How the results depend on the processing

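No difference of the 8 genes changed sign under any of the 19 alternatives. A treat test against a change of 1.5-fold, a stricter question by construction, left 3 of the 8 genes in CHIR/XAV EpiSCs against ESCs, 4 in FGF2/activin EpiSCs against ESCs and 2 between CHIR/XAV and FGF2/activin EpiSCs, with 2241, 2726 and 1175 of all genes and 10, 9 and 6 of the pathway list. Lost under it were, against ESCs, Dnmt3l (-0.81) and Tet1 (-0.50) in CHIR/XAV EpiSCs, and Dnmt1 (-0.21), Dnmt3a (0.26) and Dnmt3b (0.77) in FGF2/activin EpiSCs. Between the EpiSC groups Dnmt3a (-0.43), Uhrf1 (0.31), Tet1 (0.44), Tet2 (-0.46) and Tet3 (-0.88) were lost. In FGF2/activin EpiSCs against ESCs, Dnmt1 was also lost after median centring (-0.15) and Dnmt3a after quantile normalization (0.15). Uhrf1 was gained there with trend and robust variance (-0.15), quantile normalization (-0.27) and array weights (-0.16). Leaving out 1 array at a time moved Dnmt1 between -0.22 and -0.19 and Uhrf1 between -0.17 and -0.12 in that comparison, and Dnmt3a between -0.23 and -0.11 and Uhrf1 between 0.11 and 0.22 in CHIR/XAV EpiSCs against ESCs, with a call lost or gained in each. The cause was not tested. All other calls of the 8 genes held in all alternatives.

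Replicate numbers did not pair the arrays: deviations from group means correlated at -0.07 to 0.24 between same-numbered arrays, over 0.1 in 1 of 9 pairs. With the replicate number as a block, 5, 7 and 7 of the 8 genes were called, as without it, and 9325, 12202 and 8246 of all genes, and the block changed no other call of the 8 genes. No array was nearest to its own number in both other groups.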
